A study of Mus musculus with 36 samples.

Results

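Most genes that were high in fibroblasts and low in pluripotent cells had fallen below 50% of their fibroblast level by day 7 of reprogramming. Of the 21442 genes measured, 84 met the rule below for such genes that had not. These 84 genes were chosen by their normalised counts in the wild-type control (WT) libraries. A member had a mean of at least 500 in mouse embryonic fibroblasts (MEFs), a day 7 (D7) mean of at least 50% of that level, and means of at most 5% of it in both induced pluripotent stem cells (iPSCs) and embryonic stem cells (ESCs). Genes of the collagen, Hox, integrin, laminin, MMP, ADAMTS, CXC and CC chemokine families were left out by their symbols, which removed 6 genes that met the thresholds (Hoxd13, Itga4, Col4a1, Adamts7, Itgb3 and Cxcl14). The same thresholds at MEFs, iPSCs and ESCs held for 705 genes, of which the other 621 were below 50% of their MEF level at D7. The question was which of the 84 persisting genes were lower in cells that had lost Zfp266, a KRAB zinc finger protein.

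Reprogramming with Oct4, Sox2, Klf4 and c-Myc proceeds through loss of the somatic program, a mesenchymal-to-epithelial transition, and a later activation of the pluripotency network. Fibroblasts build extracellular matrix, anchor to it through adhesion complexes and actin bundles, and carry surface proteoglycans and caveolae. Genes of this program are switched off at different times, and those that remain on are often read as a sign of incomplete reprogramming.

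Polyadenylated RNA was sequenced in 36 libraries, 3 for each of 12 groups, which were WT and Zfp266 knockout (KO) samples of MEFs, reprogramming cells at D3, D5 and D7, iPSCs and ESCs. The MEFs were of strain 129, came from E12.5 embryos at passage P2, carried Cas9 and a doxycycline-inducible MKOS cassette followed by mOrange, and received a lentivirus with a non-targeting sgRNA (WT) or a Zfp266 sgRNA (KO) with no reprogramming factors induced. For the D3, D5 and D7 groups the same 2 lentiviruses were given before doxycycline and vitamin C were added to a mixture with an excess of 129 MEFs that lack the cassette, and sorted cells were harvested. The KO libraries of these stages are therefore populations of edited cells and not clones. The iPSC groups were 3 clones per genotype grown without doxycycline, the KO ESC group was 3 clones, and the WT ESC group was 3 samples of their parental line, Clone J. In bulk RNA of this kind, fewer cells that express a gene and less RNA per cell cannot be told apart. The labels do not say that the 3 libraries of a MEF or reprogramming group came from separate animals, so the p-values measure the spread between these libraries.

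Library depth was between 19224103 and 39610939 counts. Zfp266 transcript itself was not lower in KO MEFs (mean of 3200 normalised counts against 2949 in WT) or at D7 (1537 against 1468), so its level does not check the labels of edited cells. It was higher in KO at D3 (log2FC = 0.32, FDR = 0.0088) and lower in KO iPSCs (log2FC = -0.39, FDR = 9.9e-06). The KO vs WT difference did not pass at the other stages. Of the 12 marker genes used for fibroblasts, whose summed level was 435730 to 451281 in WT MEFs, 25229 to 37948 at D7 in WT and 8422 to 23517 at D7 in KO, Dcn was the only one that met the rule, and Thy1 (mean of 19010 in WT MEFs and 357 at D7) and Pdgfra (12716 and 98.5) had mostly gone. The 8 pluripotency markers summed to 5413 to 9342 at D7 in WT and to 24470 to 32346 in KO. Among markers of other cell types at D7, the 7 of 8 keratinocyte markers measured summed to 17280 to 25227 in WT and 13505 to 16070 in KO, the 8 of 8 neural markers to 31896 to 34574 and 21134 to 23113, the 8 of 8 endothelial markers to 1624 to 2031 and 3871 to 3925, the 6 of 8 macrophage markers to 356 to 716 and 537 to 567, and the 4 of 8 skeletal muscle markers to 130 to 278 and 143 to 260. Of the endothelial markers, Tie1 (means of 922 in WT and 2690 in KO at D7) and Pecam1 (177 and 603) were higher in KO. Pecam1 was at 1232 in WT iPSCs. Tek went the other way (634 and 424) and did not pass, and Emcn was at a mean of 0 in WT at D7. The part of these cell types in the differences below was not tested.

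KO MEF replicate 3 stood apart from its group. In this library 19 of the 84 members were below 50% of the mean of replicates 1 and 2, and 8 were above 1.5 times it, against 453 and 336 of all 8884 genes with a WT MEF mean of at least 500. Stra6 was at 98.5 normalised counts there against 720 and 795, and Gch1, which makes the tetrahydrobiopterin precursor, at 72.0 against 934 and 1001. Because all groups share 1 estimate of the spread, this library widened the errors of such genes at every stage, and the counts at D3, D5 and D7 are also given without it. By chi-square per gene between libraries, it was at 99.2 and 103 from its replicates, which were 4.38 apart. D7 WT replicate 1 (44.0 and 42.3, against 6.02) and D3 WT replicate 2 (47.6 and 38.0, against 8.52) also stood apart. The iPSC clones were 27.8 to 45.3 apart. Without D7 WT replicate 1, 38 members were lower at D7 by FDR, 16 as DEGs.

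In WT cells the members held a median of 104% of their MEF level at D3, 99.9% at D5 and 81.1% at D7, with a range at D7 of 51.6% to 661%. These values were used to choose the genes and are given as a description. Of the 84 genes, 30 were above their MEF level at D7 and 10 of these at least 2 times above it, and all were at most 5% of it in WT iPSCs and ESCs by the rule. Lgr6, an R-spondin receptor, was the member with the largest ratio: the WT libraries held 1164, 995 and 1083 in MEFs and 5926, 6953 and 8551 at D7, which is 6.61 times the MEF mean. Tgm2, the tissue transglutaminase that cross-links proteins, was at 3.98 times its MEF mean, Cd109, a surface protein that binds TGF-beta, at 3.61 times, Tns1, a focal adhesion adaptor, at 3.31 times, Ano1, a calcium-activated chloride channel, at 3.22 times and Stra6, the retinol transporter, at 3.01 times. Per kilobase of exon, Tgm2 was also the most abundant member at D7 (7303 normalised counts per kb), followed by Cdkn1a (5056), Anxa8 (3380), Emp1 (3006), Cd109 (2404) and Lmna (2390).

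**Figure D1:**
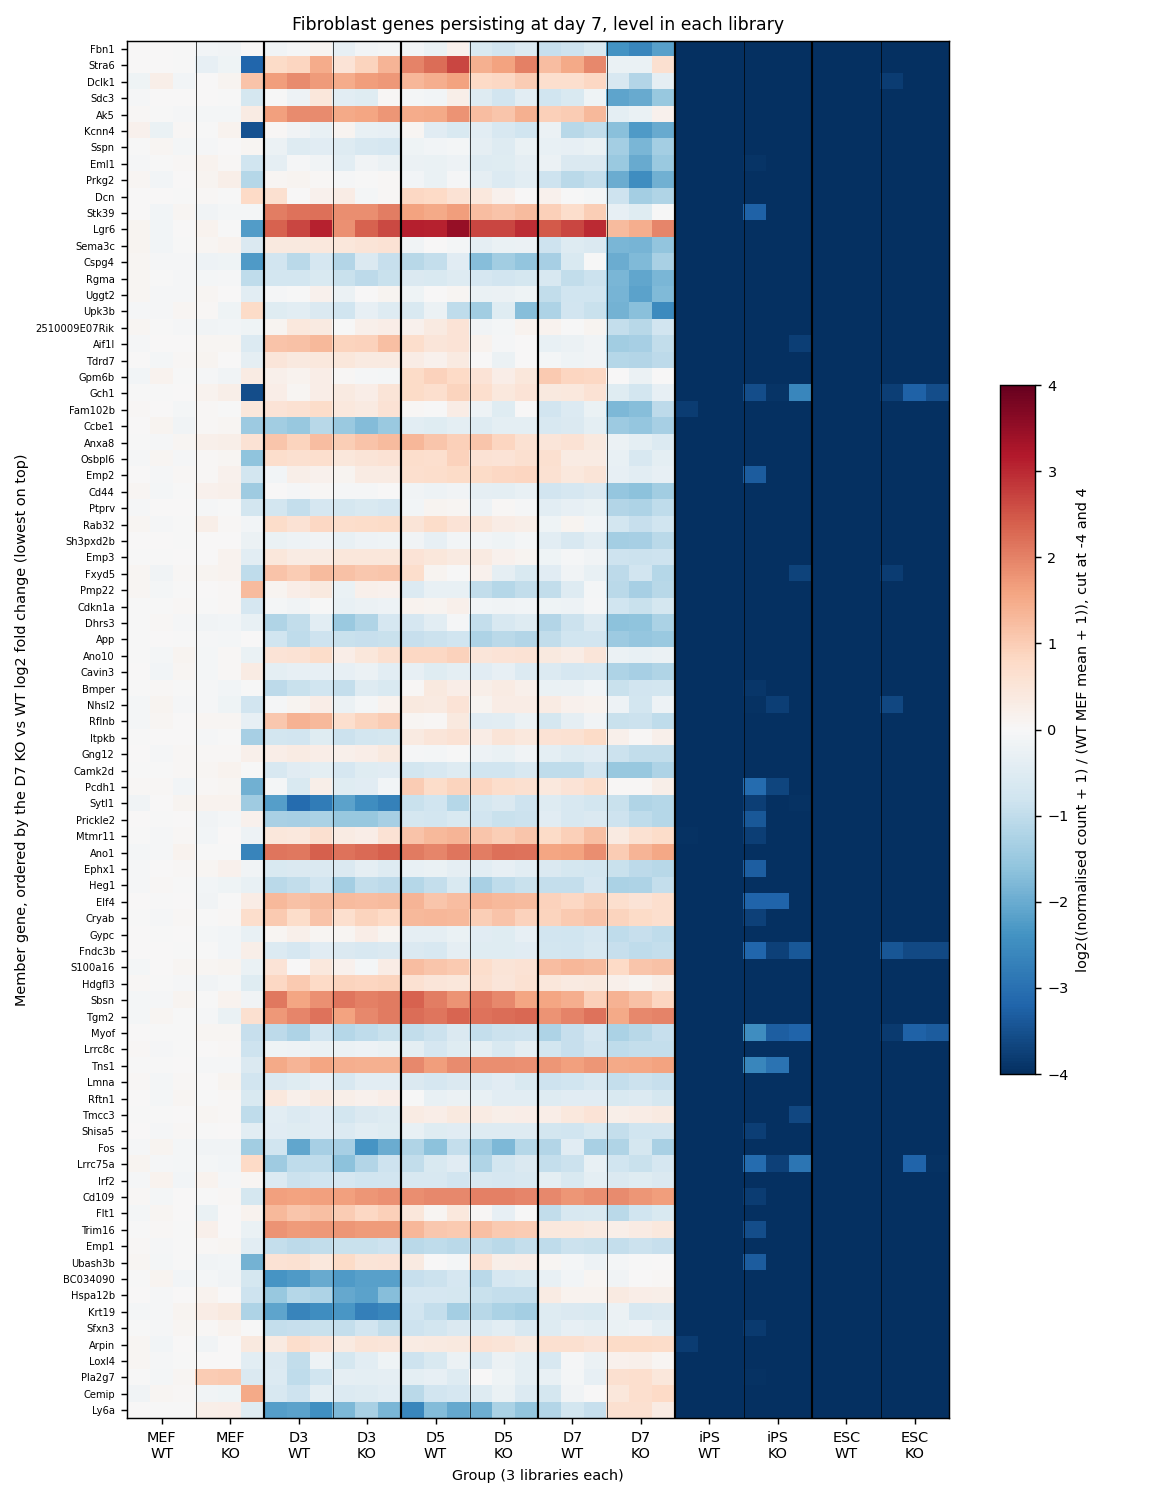
Level of the 84 members (rows, ordered by the D7 KO vs WT log2 fold change, lowest on top) in the 36 libraries (columns, 3 per group), as log2 of the normalised count plus 1 over the WT MEF mean plus 1, cut at -4 and 4. The iPS and ESC columns are dark because members were chosen to be low there, the D7 KO columns are bluer than the D7 WT columns in the upper rows, and the last MEF KO column stands apart.

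Just inside the D7 threshold were Upk3b (51.6% of its WT MEF mean), Prkg2 (51.9%) and Camk2d (52.3%). Just outside it were Hivep2 (49.5%), Nxn (49.4%) and C1qtnf1 (49.1%).

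At D7, 42 of the 84 members were lower in KO than in WT at FDR below 0.05 and 1 was higher, and 41 did not pass. Over all 21020 genes tested, 16.1% were lower and 13.3% higher by the same rule. With the added condition of a log2 fold change beyond 1, the definition of a DEG, 18 members were lower and 1 higher, against 4.42% and 3.95% of all genes. The median log2 fold change of the members was -0.52 (-0.04 over all genes), and 73 of 84 were below 0. In 60 members each KO library lay under each WT library, and in 5 each lay over, against 26.3% and 20.7% of the genes with counts at D7.

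The WT D7 libraries took part in choosing the members, and a gene enters more easily when those libraries are high. When the mean of all 6 D7 libraries was used in place of the WT ones, 73 genes met the rule, 70 of them the same. Of these, 29 were lower (39.7%) and 2 higher by FDR, 9 and 2 were DEGs, and the median was -0.37. The fibroblast genes that did not persist gave a like share: 254 of 618 tested (41.1%) were lower with the WT-based choice and 267 of 629 (42.4%) with the choice over all 6 libraries. The persisting genes thus had the higher share of lower genes by the WT-based choice and the lower share by the other. As DEGs, 21.4% of the persisting genes and 15.9% of those that did not persist were lower by the WT-based choice. By the other choice these shares were 12.3% and 17.0%. The median of the genes that did not persist was -0.59 by either choice, below that of the persisting genes (-0.52 and -0.37). By the WT-based choice 523 of the 621 were below 0. None of these differences was tested. Without KO MEF replicate 3, a choice made after seeing the data, 50 members were lower at D7, among them all 42, and 2 were higher, 19 were lower DEGs and 1 was a higher DEG.

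**Figure D2:**
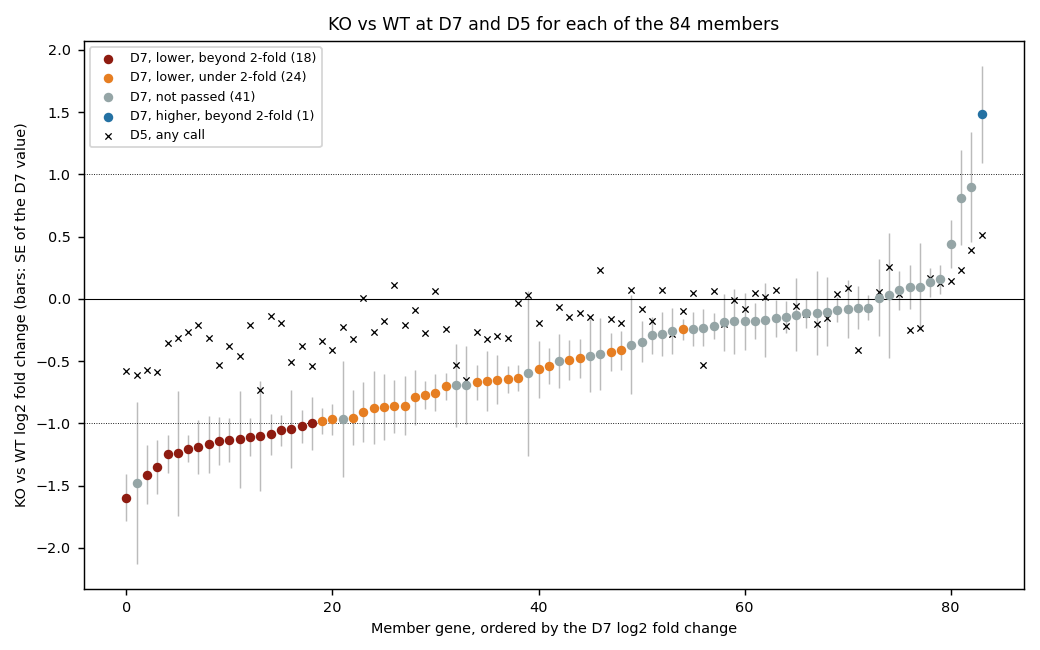
KO vs WT log2 fold change of each of the 84 members at D7 (dots, with the standard error as bars, coloured by call) and at D5 (crosses), ordered by the D7 value. At D7 the 18 lower DEGs lie below the dotted line at -1 and Ly6a, on the right, is the member above the line at 1, while every D5 cross lies between -0.73 and 0.51.

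Matrix and secreted proteins held the lowest log2 fold change. Of 11 such members, 6 were lower at D7, 5 of them as DEGs, and none was higher (the grouping by role was made with the values known). The matrix list among the gene lists given below held 3 members, of which 2 were lower, both as DEGs. Sdc3 and Cspg4, described here, are proteoglycans of the cell surface. They are on the list of growth factors, receptors and their binding proteins and not on the matrix list. Fbn1 (ENSMUSG00000027204, chr2:125300594-125507993, minus strand, GRCm38), which codes for fibrillin-1, the backbone of matrix microfibrils, had 12826, 13642 and 15833 normalised counts in WT and 4599, 3955 and 5433 in KO. No KO library came near the WT ones, and the log2 fold change was -1.60 ± 0.19 (SE, FDR = 1.8e-15). Its MEF level was 24468, 24425 and 24121 in WT and 22688, 22201 and 24776 in KO, so KO cells kept 20.1% of it and WT cells 57.9%.

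Dcn, the small proteoglycan decorin that coats collagen fibrils, stood at 3623, 3218 and 3031 in WT and 1836, 1246 and 1391 in KO at D7. The groups did not overlap (log2FC = -1.14 ± 0.20, FDR = 1.2e-07). WT cells were still at 102% of their MEF level while KO cells were at 36.8%, and KO MEF replicate 3 was high for this gene (5599 against 3370 and 3188). Sdc3, the heparan sulfate proteoglycan syndecan-3, had 2691, 3087 and 4143 in WT and 1096, 1158 and 1633 in KO (log2FC = -1.35 ± 0.22, FDR = 1.4e-08). Sema3c, a secreted semaphorin that guides migrating cells, had 3004, 3768 and 3616 in WT and 1511, 1492 and 1808 in KO. It too fell without overlap (log2FC = -1.11 ± 0.15, FDR = 7.6e-12).

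Cspg4, the NG2 proteoglycan of pericytes and other mesenchymal cells, had a call that depended on the libraries in the fit. Its libraries were at 447, 746 and 1118 in WT and 287, 333 and 458 in KO, so the groups overlap, and its log2FC of -1.10 ± 0.44 only just passed (FDR = 0.043). Each KO library was below the WT library of the same number. With the replicate number as a block, its effect shared by all stages, Cspg4 did not pass (FDR = 0.080). Nor did it without KO replicate 1 or 2 or WT replicate 2 or 3 of D7 (FDR of 0.099 to 0.23). Without KO MEF replicate 3 its FDR was 0.00025. In the same role group the lysyl oxidase Loxl4 (log2FC = 0.44 ± 0.19, FDR = 0.074), the hyaluronan-degrading Cemip (0.90 ± 0.44, FDR = 0.11) and the lipoprotein-associated phospholipase Pla2g7 (0.81 ± 0.38, FDR = 0.099) had positive values that did not pass.

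Receptors and other surface proteins moved in both directions. Of 16 such members, 9 were lower at D7, 4 of them as DEGs, and 1 was higher. Lgr6, which had climbed so far above its MEF level in WT, was at 2620, 2946 and 4228 in KO at D7, below each of the WT libraries given above (log2FC = -1.13 ± 0.39, FDR = 0.017). It remained at 3.92 times its KO MEF mean. Leaving out KO replicate 1, KO replicate 2 or WT replicate 3 of D7 raised its FDR to between 0.067 and 0.095. Sspn, sarcospan of the dystrophin complex, had 704, 688 and 719 in WT and 335, 242 and 340 in KO, and with its narrow spread gave the lowest FDR among the members (log2FC = -1.20 ± 0.11, FDR = 9.6e-25).

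Stra6 had a call that depended on the libraries and the tool. At D7 it had 2124, 2605 and 3445 in WT and 757, 757 and 1421 in KO, a clean separation with a log2FC of -1.48 ± 0.65, which did not pass (FDR = 0.072). In edgeR with TMM its FDR was 0.0073. Leaving out KO replicate 3 of D7 gave an FDR of 0.045, and leaving out any other D7 library gave 0.096 to 0.23. Without KO MEF replicate 3 the log2FC of -1.48 had an FDR of 0.016, and with only the D7 libraries in the fit the FDR was 0.0010. Kcnn4, the intermediate-conductance calcium-activated potassium channel, had 975, 538 and 586 in WT and 364, 236 and 287 in KO, and passed narrowly (log2FC = -1.24 ± 0.50, FDR = 0.046, and 2.0e-06 without that library). Each of the 6 fits that left out a D7 library took Kcnn4 past 0.05, with FDRs of 0.051 to 0.24.

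Ly6a, the surface antigen Sca-1 of mesenchymal and stem cell populations, was the member that went the other way. The WT libraries at D7 held 2372, 3213 and 2786 and the KO libraries 8371, 8306 and 6713 (log2FC = 1.48 ± 0.39, FDR = 0.0011). Its D5 libraries were below these and below MEFs, at 868, 1596 and 1295 in WT and 1378, 2198 and 1790 in KO, and in KO the rise from D5 to D7 passed as well (log2FC = 2.12 ± 0.39, FDR = 4.5e-07). KO cells at D7 were at 141% of their MEF level and WT cells at 52.4%. Cd44 (log2FC = -0.86 ± 0.24, FDR = 0.0017), the hyaluronan receptor, is also on the list of cell surface and adhesion genes and moved down, whereas Cd109, at 17443, 15534 and 16783 in WT and 16871, 15476 and 14787 in KO, did not pass (log2FC = -0.08 ± 0.23, FDR = 0.85).

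Of the 9 cytoskeletal and nuclear lamina members, 5 were lower, 3 of them as DEGs. Dclk1, a doublecortin-family kinase that binds microtubules, had 828, 826 and 932 in WT and 334, 229 and 407 in KO (log2FC = -1.41 ± 0.24, FDR = 5.4e-08). Eml1, another microtubule-binding protein, had 1519, 1185 and 1207 in WT and 645, 437 and 633 in KO (log2FC = -1.19 ± 0.22, FDR = 8.4e-07). Against these, Lmna, which codes for the A-type lamins that stiffen the nucleus of differentiated cells, lay at 13306, 13615 and 14929 in WT and 12179, 12909 and 12428 in KO. The libraries separated, by less than the test needs (log2FC = -0.16 ± 0.15, FDR = 0.47). Tns1 gave a like picture, with a log2FC of -0.17 ± 0.29 (FDR = 0.73).

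**Figure D3:**
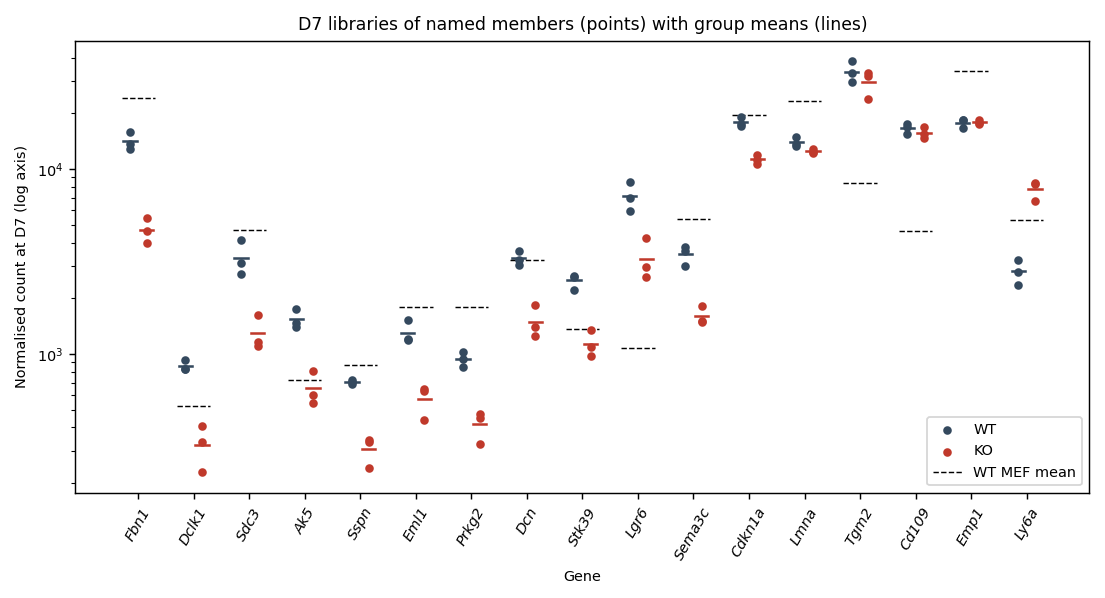
Normalised counts at D7 (log axis) of 17 members in each of 3 WT and 3 KO libraries (points), with group means as solid lines and the WT MEF mean as a dashed line. From Fbn1 to Cdkn1a the KO points lie below the WT points. Tgm2, Cd109 and Emp1 overlap, and Ly6a has its KO points above.

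Among 8 kinases and other signalling proteins 6 were lower, 2 as DEGs, and among 7 enzymes 4 were lower, 2 as DEGs. Prkg2, the membrane-bound cGMP-dependent protein kinase, had 1018, 854 and 933 in WT and 450, 324 and 474 in KO (log2FC = -1.17 ± 0.23, FDR = 4.6e-06). Stk39, a kinase that regulates cation-chloride cotransporters, was at 2605, 2226 and 2653 in WT and 1087, 974 and 1347 in KO (log2FC = -1.13 ± 0.17, FDR = 2.4e-09). Its D3 means were 6002 in WT and 5176 in KO, from MEF means of 1355 and 1270. The adenylate kinase Ak5 also had its highest means at D3 and stood at 1400, 1467 and 1758 in WT and 544, 596 and 810 in KO at D7 (log2FC = -1.25 ± 0.15, FDR = 1.9e-14). Tgm2 was in none of the lower groups, with D7 libraries of 29472, 33220 and 38262 in WT and 24057, 31847 and 33156 in KO (log2FC = -0.18 ± 0.26, FDR = 0.67).

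The list of caveola and endocytosis genes had 5 members, of which 3 were lower by FDR and none was a DEG. They include 4 tetraspan proteins of the PMP22 family, which did not move alike. Emp2 (log2FC = -0.86 ± 0.21, FDR = 0.00047) and Emp3 (-0.70 ± 0.11, FDR = 4.1e-09) fell, and Cavin3, a caveolar coat protein, fell too (-0.64 ± 0.10, FDR = 1.3e-08). Emp1 had 16700, 18518 and 18309 in WT and 17544, 18527 and 17803 in KO, with overlapping libraries and a log2FC of 0.01 ± 0.31 (FDR = 0.99), and Pmp22 did not pass (-0.69 ± 0.31, FDR = 0.078). Anxa8, a membrane-binding annexin, had 6297, 6774 and 5994 in WT and 3872, 3446 and 3073 in KO (log2FC = -0.88 ± 0.29, FDR = 0.012). Without KO replicate 3 or WT replicate 2 of D7 its FDR was 0.060 or 0.051.

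Cdkn1a, the p53 target p21 that blocks the cell cycle, was the member of the p53 target and senescence list. Its D7 libraries held 17579, 17164 and 19152 in WT and 11227, 10666 and 11974 in KO. The groups were far apart relative to their spread, and the change was under 2-fold (log2FC = -0.67 ± 0.14, FDR = 1.9e-05). The immediate early gene Fos (log2FC = -0.11 ± 0.34, FDR = 0.85) and the transcription factors Elf4 (-0.28 ± 0.18, FDR = 0.24) and Irf2 (-0.09 ± 0.10, FDR = 0.56) did not pass.

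The members were also placed on broader gene lists, whose counts at D7 can be read against the 16.1% lower and 13.3% higher of all genes. Of 87 measured matrix and matricellular genes, 3 of them members, 33 were lower and 3 higher by FDR (median log2FC = -0.78), and of 18 fibroblast markers, 2 of them members, 7 were lower and 2 higher (-0.72). The caveola and endocytosis list, with 18 genes measured, had 7 lower and 0 higher (-0.57). Of 110 growth factor, receptor and binding protein genes 37 were lower and 7 higher (-0.46), of 56 TGF-beta, BMP and activin pathway genes 20 and 5 (-0.37), of 100 cell surface and adhesion genes 33 and 23 (-0.39), and of 77 actin, contractile and focal adhesion genes 25 and 5 (-0.26). The remaining lists with a member were closer to 0: 27 annexin, S100 and lectin genes had 5 lower and 3 higher (-0.17), 31 AP-1 and immediate early genes 8 and 5 (-0.09), 20 p53 target and senescence genes 4 and 2 (-0.09), and 20 epithelial genes 2 and 4 (0.14). The 4 other lists had no member: of 141 mesenchymal transcription factors 53 were lower and 19 higher (-0.48), of 46 cathepsin, lysosome and serpin genes 13 and 4 (-0.25), of 75 interferon, antigen presentation and complement genes 16 and 11 (-0.14), and of 20 pluripotency genes 0 and 18 (1.64). In all, 21 members were on a list and 63 on none.

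Motif shares in member promoters were read against those of all promoters. RefSeq promoter windows of the 250 bases before the transcript start matched 67 members, and 4 motifs were counted on both strands. The AP-1 letters TGANTCA were in 7.46% of member promoters (6.06% of the 33 lower ones) and in 6.85% of all 27025 promoters, the TEAD letters CATTCC in 11.9% (18.2%) and 12.6%, the TATA box letters TATAAA in 10.4% (6.06%) and in 3507 of the 27025, and the octamer ATGCAAAT in 0 and 1.62%. In promoters of genes with a WT MEF mean of at least 500, the shares were 3.82% (AP-1), 9.97% (TEAD), 5.84% (TATA) and 1.13% (octamer). In promoters of the fibroblast genes that did not persist they were 6.83%, 12.6%, 11.7% and 1.54%, in the same order. The 8 TEAD matches were in 6 of 33 lower and 2 of 34 other members, a difference that was not tested. None of the 4 motifs contains another, and a match is a description of the sequence and not a site that was shown to be used. The windows of 3 members free of annotated exon bases are shown because they hold 1 of the motifs each, for the lower members Upk3b and Emp3 and for Elf4, which did not pass. They run 5′ to 3′ on the strand of the gene, and capitals mark the TEAD letters 241 bases before the start in Upk3b (chr5:136038246-136038495, plus), the TATA letters 40 bases before it in Emp3 (chr7:45921427-45921676, minus) and the AP-1 letters 39 bases before it in Elf4 (chrX:48463133-48463382, minus), on build GRCm38.p6.
Upk3b: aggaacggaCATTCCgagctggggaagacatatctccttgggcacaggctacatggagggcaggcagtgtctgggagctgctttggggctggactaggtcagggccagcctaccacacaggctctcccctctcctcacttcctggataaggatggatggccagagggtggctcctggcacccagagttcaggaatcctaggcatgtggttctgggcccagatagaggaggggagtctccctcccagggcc
Emp3: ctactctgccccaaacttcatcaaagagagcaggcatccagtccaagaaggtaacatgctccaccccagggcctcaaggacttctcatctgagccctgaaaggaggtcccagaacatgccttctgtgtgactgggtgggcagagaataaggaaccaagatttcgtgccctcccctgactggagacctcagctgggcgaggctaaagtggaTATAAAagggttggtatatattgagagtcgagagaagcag
Elf4: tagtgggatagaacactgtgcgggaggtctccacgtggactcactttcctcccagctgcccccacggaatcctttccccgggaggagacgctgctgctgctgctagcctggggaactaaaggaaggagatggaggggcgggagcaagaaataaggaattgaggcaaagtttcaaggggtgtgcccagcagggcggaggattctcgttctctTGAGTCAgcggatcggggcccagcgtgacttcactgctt

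Before D7 few members differed between the genotypes. In MEFs, whose WT libraries did take part in the choice, no member passed at FDR below 0.05 in either direction, against 0.0143% lower and 0.0285% higher of all genes, and 1 member in each direction had an unadjusted p under 0.05. At D3 no member passed either (0.119% lower and 0.374% higher of all genes tested), with 3 lower and 0 higher at an unadjusted p under 0.05 in DESeq2 and no DEG in edgeR at either stage. Without KO MEF replicate 3, 1 member was lower at D3, and with only the D3 libraries in the fit 3 were lower and 1 was higher. The KO libraries were below all WT ones in 10 members at D3, against 7.7% of all genes. The test of the change itself, the KO vs WT difference at D7 minus that at D3, gave 23 members (27.4%) lower at D7 and 1 higher by FDR, against 7.19% and 5.82% of all genes. Of the fibroblast genes that did not persist, 134 of 618 tested (21.7%) were lower and 6 higher. With all 6 D7 libraries choosing, 17 of 73 persisting genes (23.3%) were lower and 1 higher. Of those that did not persist by that choice, 140 of 629 tested (22.3%) were lower and 6 higher.

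At D5 the D7 pattern was in view in the direction of the values and largely absent from the calls. The median log2 fold change was -0.19 and 61 of 84 members were below 0. The fibroblast genes that did not persist gave a like picture, with a median of -0.22 and 464 of 621 below 0. The median over all genes was -0.01. All 3 KO libraries were below all WT ones in 36 members (42.9%) and above in 3, against 14.7% and 14.4% of all genes. By FDR at D5, 43 of 618 tested fibroblast genes that did not persist (6.96%) were lower and 0 higher. Of the members, 5 (5.95%) were lower and 0 higher by FDR, against 2.43% and 4.72% of all genes. At an unadjusted p under 0.05, 18 members were lower, and none was a DEG. The 5 were Rflnb (log2FC = -0.54 ± 0.14, FDR = 0.0048), S100a16 (-0.53 ± 0.15, FDR = 0.010), Tdrd7 (-0.34 ± 0.10, FDR = 0.014), Gpm6b (-0.41 ± 0.12, FDR = 0.014) and Fbn1 (-0.58 ± 0.19, FDR = 0.031), named after their values were seen. Fbn1 at D5 had 22532, 20109 and 27393 in WT and 16039, 14254 and 16502 in KO. Of these 5, S100a16 did not pass at D7 (log2FC = -0.23 ± 0.15, FDR = 0.25). The count depends on which libraries set the spread: it was 15 without KO MEF replicate 3, 29 with only the D5 libraries in the fit, where 6.79% of all genes were lower, and 3 in edgeR, and leaving out KO replicate 2 or WT replicate 3 of D5 brought it to 1 and WT replicate 1 to 3.

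**Figure D4:**
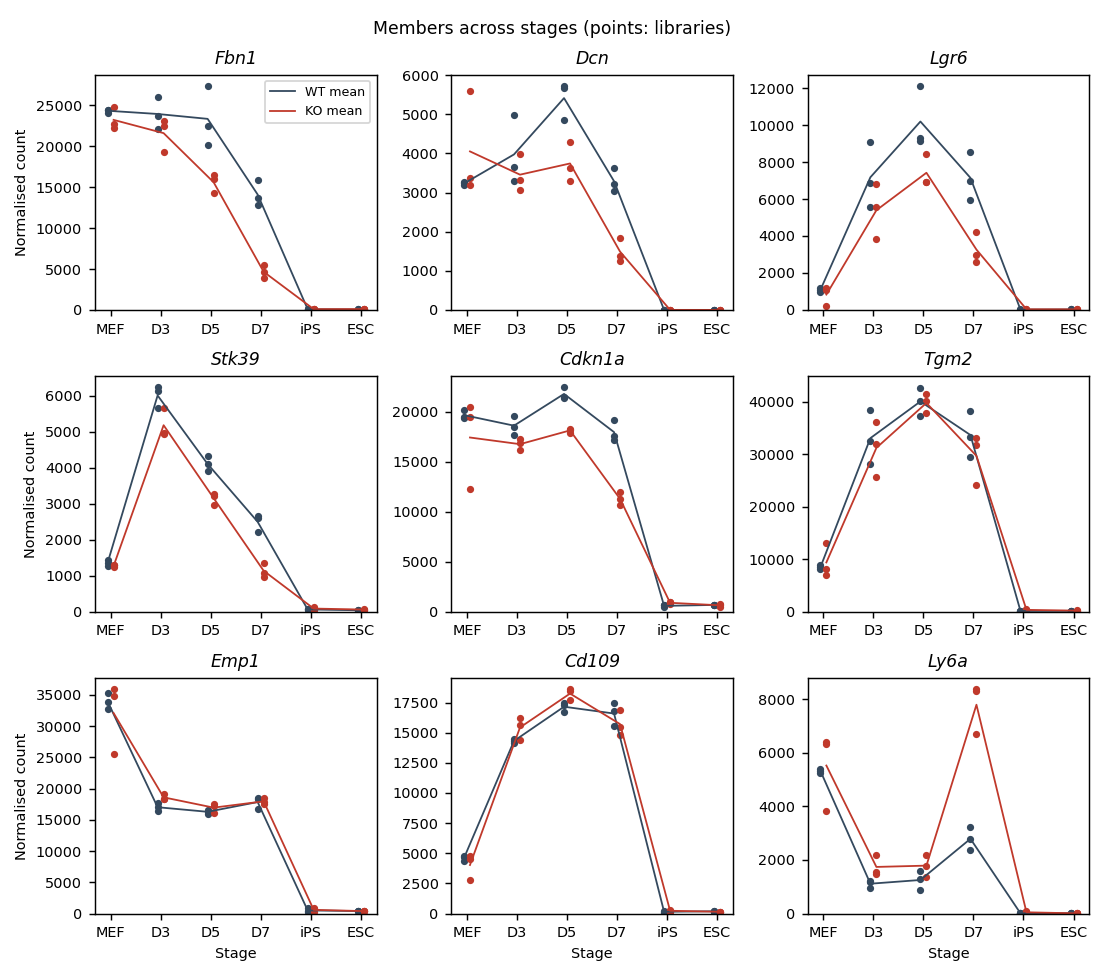
Normalised counts of 9 members across MEF, D3, D5, D7, iPS and ESC for WT (dark) and KO (red), with points for libraries and lines for means. Fbn1, Dcn, Lgr6, Stk39 and Cdkn1a separate at D7 with KO below, Tgm2, Emp1 and Cd109 stay together, and Ly6a rises at D7 in KO to 8371, 8306 and 6713.

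Within KO cells, none of which chose the members, D7 was compared with each earlier stage. From D5 to D7, 27 members were lower DEGs and 3 higher, against 5.34% and 8.84% of all genes, with a median log2 fold change of -0.67. From D3 to D7 the counts were 28 and 6 (9.33% and 14.7% of all genes), and from MEF to D7 they were 28 and 7 (23.2% and 20.8%), or 30 lower without KO MEF replicate 3. Lower DEGs were thus 32.1%, 33.3% and 33.3% of members. Of the fibroblast genes that did not persist, 14.4% were lower DEGs from D5, 40.3% from D3 and 99.5% from MEF, and 8.41%, 5.99% and 0% higher. The rule split the 2 sets by their WT level at D7, and the differences between them were not tested. Fbn1 dropped by 1.74 on the log2 scale from D5 to D7 (SE 0.19, FDR = 5.0e-19), Prkg2 by 1.67 (SE 0.23, FDR = 4.0e-12) and Dclk1 by 1.58 (SE 0.24, FDR = 2.9e-10). The 3 that rose were Ly6a, Cemip and Hspa12b. In WT cells the change from D3 to D5, which the rule did not use, was small and mixed, with 1 lower and 5 higher DEGs against 1.84% and 4.94% of all genes.

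Applied to KO cells, the threshold of 50% of the MEF level at D7 was met by 56 of the 84 members (54 without KO MEF replicate 3), and 28 were below it, with Fbn1 (20.1%) and Upk3b (20.7%) under 25%. Upk3b, a uroplakin, was lower at D7 (log2FC = -1.05 ± 0.31, FDR = 0.0047), with an FDR of 0.052 without KO replicate 3. The median share was 59.4% in KO against 81.1% in WT, and 23 members were above their MEF level in KO against 30 in WT. By library the median share of the WT MEF level was 78.6%, 82.7% and 87.8% in WT at D7 and 56.9%, 56.5% and 59.8% in KO. All 3 KO libraries lay below the WT ones by this measure. The rule required a WT share of at least 50% and set no limit for KO. The choice of members therefore favours WT in each of these comparisons of shares.

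**Figure D5:**
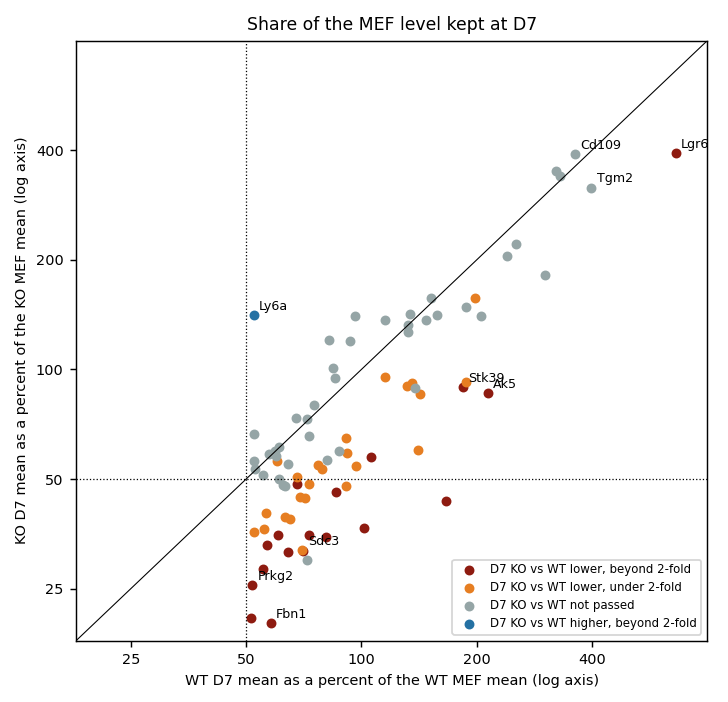
D7 mean as a percent of the MEF mean in KO (vertical, log axis) against WT (horizontal, log axis) for the 84 members, coloured by the D7 KO vs WT call, with the diagonal of equal shares and dotted lines at 50%. All points are right of 50% in WT by the rule. In KO 28 lie below 50%, Cd109 and Tgm2 lie near the diagonal at 390% and 316% in KO, and Ly6a is far above it.

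The 42 lower members differed from the 41 that did not pass in their course and not in their length. The median exon length was 5770 bp in the lower genes and 5829 bp in the others. In WT, where D7 chose the genes, the D7 mean was a median of 0.751 times the D5 mean in the lower members and 0.922 times in the others, and in KO the ratios were 0.469 and 0.837. At D5, 29 of the 42 had all KO libraries below the WT ones against 7 of the 41. These are descriptions of groups made from the D7 result. Of the 84 members, 24 have exons that overlap a gene on the other strand and 4 overlap one on the same strand in GENCODE vM21, Fbn1, Dclk1, Sdc3, Ak5, Sspn and Eml1 among the former. The library kit was stranded, and whether counting used the strand is not given in the sources used here.

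In the pluripotent lines the members were low by choice, and KO iPSC clones held more of them than WT clones. By the DEG rule 23 members were higher and 1 lower in KO iPSCs, against 3.95% and 0.557% of all genes. The WT iPSC libraries took part in the choice, which favours genes that are low in them. Myof, a ferlin that repairs the plasma membrane, had 656, 451 and 882 in WT clones and 2939, 1644 and 1787 in KO clones (log2FC = 1.68 ± 0.23, FDR = 1.9e-10), and KO clones were at 14.9% of the KO MEF mean. Elf4 had 60.5, 39.6 and 55.7 in WT clones and 226, 228 and 79.8 in KO clones (log2FC = 1.78 ± 0.22, FDR = 2.0e-13). For Tns1 the KO clones were at 742, 585 and 118 against 162, 148 and 147, so clone 3 lay below the WT clones (log2FC = 1.66 ± 0.30, FDR = 3.2e-06). Ephx1, an epoxide hydrolase, was at 525, 309 and 256 in KO clones and 109, 127 and 213 in WT clones (log2FC = 1.28 ± 0.18, FDR = 4.7e-10), and Gng12, a G protein gamma subunit, at 174, 60.8 and 70.7 against 32.8, 43.1 and 26.9 (1.56 ± 0.22, FDR = 9.8e-10).

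KO clone 1 carried much of this. The members summed to 14154 normalised counts in it, 10782 and 9579 in the other KO clones and 6770 to 7483 in the WT clones, and without clone 1 the count of higher DEGs was 13. It was 15 in edgeR and 7 with only the iPSC libraries in the fit. All these sums are small beside the 284121 to 317748 of the WT libraries at D7.

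In ESCs 2 members were higher DEGs and 1 lower in KO, against 0.741% and 0.468% of all genes. Trim16, a tripartite motif protein, had 58.3, 59.4 and 44.9 in KO clones and at most 30.4 in WT (log2FC = 1.03 ± 0.21, FDR = 0.00013), Lrrc75a had 34.1, 63.3 and 37.7 against at most 20.8 (1.36 ± 0.35, FDR = 0.0034), and Mtmr11, a myotubularin-related protein, had 9.9, 5.8 and 14.4 against 28.1, 36.4 and 19.1 (-1.45 ± 0.33, FDR = 0.00069). Neither Trim16 nor Lrrc75a passed at D7.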

How the data were processed

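Polyadenylated RNA of 36 samples was measured by stranded RNA-seq. Per the labels and the methods of the study, the authors ran FastQC, trimmed reads with cutadapt, aligned them to GRCm38.p6 with STAR, assigned them to genes with Rsubread and deposited the count table, and they deposited normalised counts, which are signal values, made by dividing each count by a DESeq2 size factor. Tables of the authors' own comparisons hold fold changes and p-values, which were not used, and 1 of them was read for its pairing of gene identifiers with symbols. A deposited table of regularised log values corrected for batches was not used. The labels name no batch, while the methods of the study give the date of library preparation as an example of what was corrected. The main fit here had no batch term.

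The members were taken from the deposited normalised counts. Tests ran on the deposited counts of all 21442 genes and 36 libraries with DESeq2 1.42.0 in R 4.3.3 (Wald test, median-ratio size factors, 12 groups as 1 factor, no shrinkage, Benjamini-Hochberg FDR over all genes, DEG at FDR below 0.05 and a log2 fold change beyond 1), and the procedure was tested on simulated data. Alternatives were edgeR 4.0.16 with TMM, TMM size factors, a filter of 10 counts in 3 libraries, only the groups compared, each library left out, and other thresholds of the rule. Same-numbered WT and KO libraries had positive correlations of their deviations in all 3 pairs at D3 (0.456, 0.101 and 0.272), D5 (0.268, 0.0897 and 0.222) and D7 (0.339, 0.172 and 0.392). At D3, WT replicate 2 correlated slightly more with KO replicate 3 (0.126) than with KO replicate 2. At no other stage were all pairs positive. The pairing at D3, D5 and D7 therefore comes from the data and not from the labels.

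Named members were the 12 lowest and up to 6 highest non-overlapping DEGs at D7, the 6 most abundant per kb, the 6 with the highest ratio to MEF, 3 on either side of the D7 threshold, DEGs on a gene list (up to 4 a list), and the 5 DEGs with the lowest FDR in iPSCs and ESCs. Others are named beside a count. The members and lists were chosen with earlier results of these data known. Annotation was GENCODE vM21, and promoters came from RefSeq (GRCm38.p6). Depth was 19224103 to 39610939 counts per library.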

Additional observations from a re-analysis of the deposited data

Results flagged for a closer look

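The KO vs WT difference of the members changed between D3 and D7. A contrast of the 2 differences in the same DESeq2 fit gave 23 members whose log2 fold change was lower at D7 than at D3 at FDR below 0.05 and 1, Hspa12b, whose value was higher. The WT D7 libraries used by this contrast also chose the members. Of the fibroblast genes that did not persist, 134 of 618 tested (21.7%) were lower and 6 higher, against 27.4% of members lower. Among the named members, the log2 fold change at D7 minus that at D3 was -1.45 for Fbn1, -1.28 for Dclk1, -1.22 for Sema3c, -1.11 for Eml1, -1.10 for Prkg2, -1.04 for Ak5, -0.99 for Sspn, -0.98 for Sdc3, -0.94 for Dcn and -0.92 for Stk39. Groups of 3 libraries are too small for a test of single outlying libraries.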

How the results depend on the processing

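No called D7 value of a named member changed sign under any alternative run, and neither did the D7 median of the members. Signs of the other members and of the other stages were not checked in this way. Among named members that did not pass at D7, the log2 fold change of Lrrc75a was 0.13 without WT replicate 3 and that of Emp1 was -0.014 without KO replicate 2 and -0.036 without WT replicate 1, against -0.10 and 0.01. Of 384 values of the 32 named members, 345 kept their side of the threshold, 31 no longer passed and 8 newly passed, and 20 members were the same throughout. Of 242 counts and medians, 199 kept within the limits set and 43 moved.

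The 42 lower members at D7 were 40 with the replicate number as a block (39 of them shared), 39 in edgeR (38 shared) and 56 with only the D7 libraries (41 shared). The block gave each replicate number the same effect at every stage, so it did not model a pairing of libraries within D7. Among the named members the block took the call from Cspg4 and Mtmr11, and at D5 it gave 6 lower members. The 1 member higher by FDR was 2 with TMM size factors, 4 in edgeR and 5 with only the groups compared. The 5 lower at D5 were 3 in edgeR and 29 with only the groups compared. The 23 higher in iPSCs were 15 and 7 in these fits, and the 23 lower at D7 than at D3 were 39 in the latter, where the D7 median log2 fold change was -0.48.

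Leaving out 1 library at a time, KO MEF replicate 3 included (chosen after seeing the data, as were the iPSC, ESC and D7 minus D3 alternatives), gave 1 to 2 higher members at D7, 1 to 15 lower members at D5, 1 to 2 lower from D3 to D5 in WT, 13 to 25 higher in iPSCs, 1 to 4 higher in ESCs and a D7 median of -0.55 to -0.46. The 4 in ESCs came without KO clone 3, and the 1 without KO clone 2 or WT sample 1.

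Other thresholds of the rule were tried for the D7 comparison and the number of members. With all 6 D7 libraries choosing, 9 members were lower DEGs and 2 higher (2 by FDR), with a median of -0.37. A D7 share of 75% left 46 members, 21 lower by FDR, 8 as DEGs and 0 higher by either rule (median -0.55), and a share of 40% gave a median of -0.55. A MEF minimum of 250 gave 31 lower DEGs (median -0.62). A ceiling of 2% in iPSCs and ESCs left 35 members, 20 lower by FDR and 9 as DEGs (median -0.65), and a ceiling of 10% gave 152 members, 84 lower by FDR and 2 higher by either rule. The cause of these moves beyond the number of genes or libraries was not tested.

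Depth differed between libraries, from 19224103 to 39610939 counts. Without KO MEF replicate 3 the D7 FDR was 0.016 for Stra6, 2.0e-06 for Kcnn4, 0.00034 for Lgr6 and 0.00025 for Cspg4.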
